A study of Mus musculus with 8 samples.

Results

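Genes of TGF-beta, activin and BMP signaling were examined in mouse mammary tumors as a list of 42 members, made up of ligands, a protease, receptors, SMAD proteins, target genes, extracellular antagonists and latency proteins. The members were given as gene symbols, and each symbol was matched to 1 mouse Ensembl gene identifier among the 55414 identifiers of the deposited table. Of the 42 members, 38 had enough counts for a test, which was run on 14458 genes in all. Bulk RNA-Seq was carried out on PyMt tumors to ask what topical calcipotriol, a vitamin D analog, changes in the RNA of an established mammary tumor. The PyMt cells are a single line from a tumor of an MMTV-PyMt transgenic mouse, in which the MMTV promoter drives the polyoma middle T oncogene in mammary epithelium, and they were implanted orthotopically into the mammary fat pad of WT C57BL/6 female mice of 6 to 8 weeks. The calcipotriol group (4 tumors, replicates 1, 5, 6 and 7) received 20 nmol calcipotriol dissolved in ethanol on the skin over the tumor every 2 days, starting 2 days after implantation, and the EtOH group (4 tumors, replicates 1, 2, 3 and 4) received the solvent on the same schedule. Harvest was 24 hours after the last treatment, and RNA came from whole tumors, so that tumor, stromal, vascular and immune cells contributed to each value.

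The totals were 20908409, 21912723, 25084715 and 23166539 counts in EtOH tumors 1 to 4 and 24673432, 22272072, 19685397 and 22383679 counts in calcipotriol tumors 1, 5, 6 and 7. Levels are given as CPM, the usual scaled count, computed on TMM-normalized library sizes, and 3 counts correspond to 0.119 to 0.146 CPM, which is the most that a count of 0 allows. The sample labels give the cell type as epithelial. Krt8 and Krt18, keratins of simple epithelia, were at 523 to 652 CPM and 462 to 665 CPM in the EtOH tumors, and at 285 to 516 CPM and 259.7 to 348 CPM in the calcipotriol tumors. Epcam, an epithelial adhesion molecule, had 0 counts in EtOH tumors 1 and 2, 4.29 and 2.87 CPM in EtOH tumors 3 and 4, and 1.19 to 22.7 CPM in the calcipotriol tumors. Cldn7, a tight junction protein of luminal cells, did not exceed 0.481 CPM in any tumor. Simple epithelial keratins were therefore abundant in every tumor, while these other epithelial markers were low or at 0 in several of them.

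The tumors of a group were not equally alike. EtOH tumors 1 and 2 differed from each other by a root mean square log2 difference of 0.834 over the tested genes, and EtOH tumors 3 and 4 by 0.818. Between these pairs the difference was 1.01 to 1.16. Between EtOH and calcipotriol tumors it was 0.975 to 1.31, a range that holds the differences between the EtOH pairs. Calcipotriol tumors 5, 6 and 7 differed from each other by 0.554 to 0.769, and calcipotriol tumor 1 differed from them by 0.881 to 0.997. EtOH tumors 1 and 2 thus stood apart from EtOH tumors 3 and 4, and calcipotriol tumor 1 from the other calcipotriol tumors, and the labels give no batch or date that these sets of tumors share. Results are given below with all 8 tumors, and for the members and other pathway genes described also without these tumors where that changed a call. Each log2 fold change compares calcipotriol with EtOH and is given with its standard error (SE), and adjusted p-values are Benjamini-Hochberg values over all genes tested.

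Ligands of the TGF-beta family are secreted dimers that bind paired serine/threonine kinase receptors, which phosphorylate SMAD proteins that then enter the nucleus and regulate transcription. TGF-beta and activin ligands act mainly through SMAD2 and SMAD3, BMP ligands through SMAD1, SMAD5 and SMAD9, and SMAD4 is the partner common to both branches. Secreted antagonists and latency proteins set how much ligand reaches a receptor, and in mammary tumors the family is known for growth control of epithelium and for matrix production by stromal cells.

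Among the 38 tested members, Fst, an antagonist of activins, rose and Grem1, an antagonist of BMPs, fell in calcipotriol-treated tumors. With all 8 tumors no ligand, receptor or SMAD of the list passed by edgeR or DESeq2, and the target gene Id1 and the latency protein Ltbp1 passed by DESeq2 alone. Fst and Grem1, 2 of 38 members, had an adjusted p under 0.05 together with a log2 fold change of 1 or more in either direction, a combination met by 2.02% of all genes tested. The same 2 members passed an adjusted p under 0.05 alone, which 2.74% of all genes did. The values of 5 of the 38 members did not overlap between the groups, being higher with calcipotriol for Fst, Acvr1b and Ltbp1 and lower for Grem1 and Smad1, and 12.5% of all genes were without overlap. An unadjusted p under 0.05 was reached by 8 members, and by 18.4% of all genes tested. The log2 fold change was positive for 18 members and negative for 20, with a median of -0.06, and the median over all genes was 0.02. The share of members without overlap was near that of all genes, so the list as a whole did not stand out by overlap. The 2 members called were too few to set the list apart from all genes or to liken it to them.

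**Figure D1:**
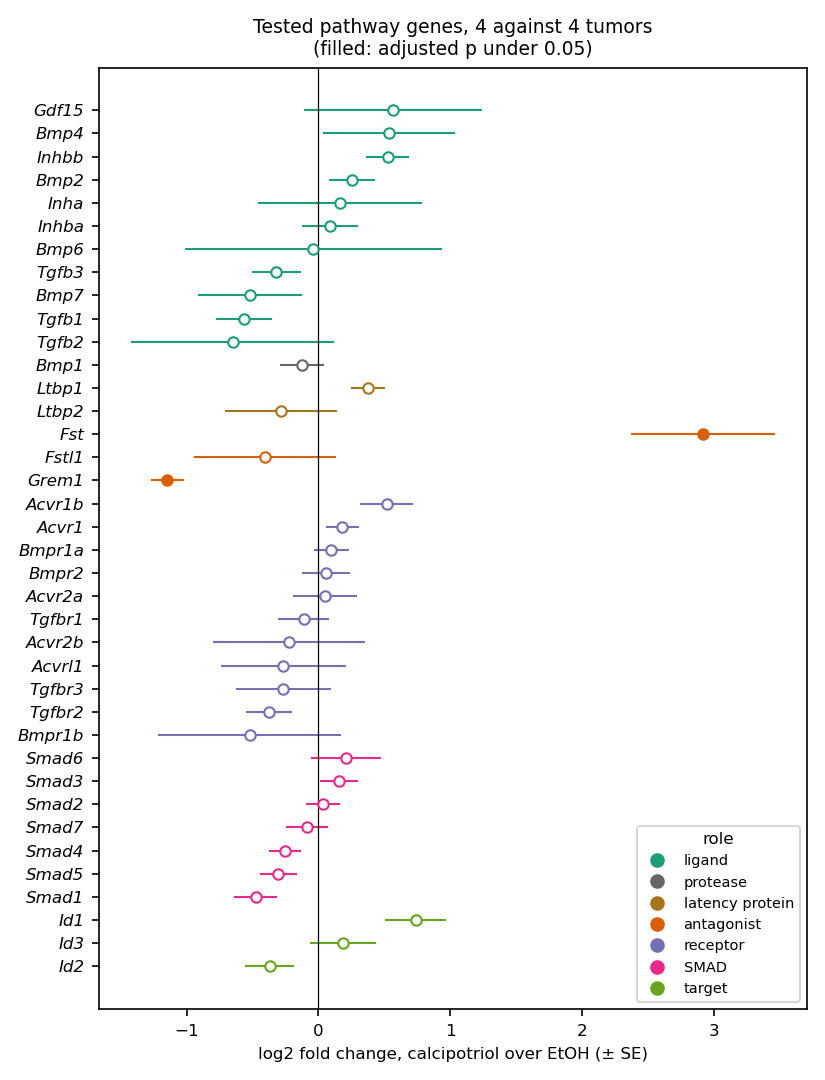
Log2 fold change of calcipotriol over EtOH (horizontal axis, with its standard error as bars) for the 38 tested members, coloured and ordered by role, from 4 tumors in each group. Filled points had an adjusted p under 0.05 by edgeR, and these are Fst at 2.92 and Grem1 at -1.15.

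Ligands came to 13 members, of which 11 were tested, 6 with a positive and 5 with a negative log2 fold change and a median of 0.09. Tgfb1 encodes TGF-beta 1, which restrains epithelial growth and acts on immune and stromal cells. Per kb of exon it was the most abundant ligand when averaged over all 8 tumors, but not in every tumor. Tgfb3 exceeded it in EtOH tumors 1 and 2 and calcipotriol tumors 5, 6 and 7. Bmp2 exceeded it in calcipotriol tumors 6 and 7, and Inhba and Inhbb in calcipotriol tumor 5. Tgfb1 was at 53.7 ± 4.52 CPM per kb (SD, n = 4) with EtOH and 36.3 ± 12.7 CPM per kb (SD, n = 4) with calcipotriol. Its level was 267, 248, 268 and 302 CPM in EtOH tumors 1 to 4 and 273, 124, 157 and 178 CPM in calcipotriol tumors 1, 5, 6 and 7. Calcipotriol tumors 5, 6 and 7 lay below every EtOH tumor, whereas calcipotriol tumor 1 lay within the EtOH range. For Tgfb1 the log2 fold change was -0.57 (SE 0.22, edgeR quasi-likelihood adjusted p = 0.199), so Tgfb1 did not pass with all tumors. Without calcipotriol tumor 1 it was -0.82 and passed (edgeR adjusted p = 0.0133), and over all alternatives the adjusted p was 0.0133 to 0.414. Tgfb3, a TGF-beta made largely by stromal cells, was at 123 to 187 CPM with EtOH and 101 to 158 CPM with calcipotriol. Tgfb2, the remaining TGF-beta, was low and uneven, at 10.4, 12.6, 5.23 and 3.04 CPM in the EtOH tumors and 13.9, 0.777, 3.36 and 1.74 CPM in the calcipotriol tumors. Within EtOH both genes were higher in tumors 1 and 2 than in tumors 3 and 4, and with calcipotriol both were highest in tumor 1.

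The activin and inhibin genes encode subunits whose pairing decides the product, since beta subunits pair with each other to form activins and with the alpha subunit to form inhibins. Inhbb, the beta B subunit, was at 83.2, 71.7, 64 and 52.1 CPM in EtOH tumors 1 to 4 and 79.6, 108, 94 and 108 CPM in calcipotriol tumors 1, 5, 6 and 7. Calcipotriol tumors 5, 6 and 7 were above all EtOH tumors, and the groups overlapped only through calcipotriol tumor 1, which lay just under EtOH tumor 1. For Inhbb the log2 fold change was 0.52 (SE 0.16, edgeR quasi-likelihood adjusted p = 0.123), and no alternative brought it past the threshold (adjusted p from 0.0503 to 0.278). Inhba, the beta A subunit, was at 145 to 198 CPM with EtOH and 136 to 272 CPM with calcipotriol. Inha, the alpha subunit, was low, at 0.397 to 5.89 CPM with EtOH and 2.56 to 3.77 CPM with calcipotriol. For Inhba the highest tumor was calcipotriol tumor 1, and the other calcipotriol tumors lay among the EtOH tumors or below them.

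Bmp2, a BMP that signals through SMAD1 and SMAD5, was the only BMP ligand of the list above 6.91 CPM in any tumor. It was at 93.3 to 109 CPM with EtOH and 78 to 142 CPM with calcipotriol, and the lowest and the highest tumor both belonged to the calcipotriol group. Bmp4 and Bmp7, BMPs with roles in branching organs, were at 1.42 to 5.01 CPM and 3.26 to 6.91 CPM with EtOH, and at 2.38 to 6.67 CPM and 1.68 to 4.81 CPM with calcipotriol. Bmp6 did not exceed 0.817 CPM in any tumor and had 0 counts in calcipotriol tumor 1. Gdf15, a stress-induced ligand distant from the rest of the family, was at 2.77 to 3.55 CPM with EtOH, at 0.318 CPM in calcipotriol tumor 1 and at 3.86 to 8.36 CPM in calcipotriol tumors 5, 6 and 7. Bmp3 and Gdf6 were not tested, with 0 to 30 and 1 to 10 counts per tumor. Bmp1, despite its name a protease that cleaves procollagens and the BMP antagonist chordin, was at 265 to 420.3 CPM with EtOH and 256 to 339 CPM with calcipotriol (log2 fold change -0.12, SE 0.17). None of these BMP and GDF genes passed the test, and the groups overlapped for each of them.

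Receptors came to 11 members, all tested, with 5 positive and 6 negative log2 fold changes and a median of -0.11. Tgfbr3, the co-receptor betaglycan that presents TGF-beta 2 and inhibin to other receptors, was the most abundant receptor per kb of exon when averaged over all 8 tumors. Tgfbr2 exceeded it in EtOH tumors 3 and 4 and calcipotriol tumor 1, and Bmpr1a exceeded it in EtOH tumors 3 and 4. Tgfbr3 was at 32.1 ± 18.4 CPM per kb (SD, n = 4) with EtOH and 26.7 ± 4.87 CPM per kb (SD, n = 4) with calcipotriol. Its level was 291, 336, 113 and 100.4 CPM in EtOH tumors 1 to 4 and 136, 181, 169 and 213 CPM in calcipotriol tumors 1, 5, 6 and 7. EtOH tumors 1 and 2 were above every calcipotriol tumor and EtOH tumors 3 and 4 were below every calcipotriol tumor. With all tumors the log2 fold change was -0.27 (SE 0.36, edgeR quasi-likelihood adjusted p = 0.751). With EtOH tumors 3 and 4 set aside it was -0.84 (edgeR adjusted p = 0.0366), and with EtOH tumors 1 and 2 set aside it turned to 0.71 (edgeR adjusted p = 0.0915), both comparisons chosen after the values had been seen. The direction of Tgfbr3 thus depended on which pair of EtOH tumors was used.

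Acvr1b, the activin receptor ALK4, was at 17, 15.4, 16 and 11.9 CPM in EtOH tumors 1 to 4 and 29.2, 20.2, 19.6 and 17.3 CPM in calcipotriol tumors 1, 5, 6 and 7. Every calcipotriol tumor was above every EtOH tumor, by a narrow margin between calcipotriol tumor 7 and EtOH tumor 1. For Acvr1b the log2 fold change was 0.52 (SE 0.20, edgeR quasi-likelihood adjusted p = 0.207), which did not pass, nor did it under any alternative (adjusted p from 0.158 to 0.341). Acvrl1, the receptor ALK1 that endothelial cells use for BMP9 and BMP10, was at 9.49, 7.35, 11.1 and 10.3 CPM in the EtOH tumors and 18.4, 4.7, 4.66 and 3.94 CPM in calcipotriol tumors 1, 5, 6 and 7. Calcipotriol tumors 5, 6 and 7 were below all EtOH tumors and calcipotriol tumor 1 was above all of them. For Acvrl1 the log2 fold change was -0.27 with all tumors (edgeR quasi-likelihood adjusted p = 0.816) and -1.11 without calcipotriol tumor 1 (edgeR adjusted p = 0.0302). Of 10 endothelial markers, 6 fell past an adjusted p of 0.05 by edgeR, beside 2.74% of all genes passing, and 8 passed by DESeq2, beside 8.21%. None rose, none was at 0 in every tumor, and Cdh5 was the most abundant. The summed endothelial markers were at 339, 372, 160.1 and 159 CPM in EtOH tumors 1 to 4 and 116, 63.1, 88.3 and 90.1 CPM in calcipotriol tumors 1, 5, 6 and 7. In calcipotriol tumors 5, 6 and 7 both this sum and Acvrl1 were below all EtOH tumors. In calcipotriol tumor 1 the sum was below all EtOH tumors and Acvrl1 above them. The part of endothelial cells in the values of Acvrl1 was not tested. In bulk tumors, fewer cells of a type and less RNA per cell cannot be told apart.

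The remaining receptors overlapped between the groups and did not pass. Tgfbr1 and Tgfbr2, the signaling receptor pair of TGF-beta, were at 55.1 to 99.9 CPM and 184 to 252 CPM with EtOH, and at 57.6 to 87.8 CPM and 123 to 209 CPM with calcipotriol. Among the BMP receptors, Acvr1 was at 64.7 to 90.5 CPM with EtOH and 84 to 93.9 CPM with calcipotriol, and Bmpr1a at 106 to 136 CPM and 111 to 151 CPM. Bmpr2, the partner that BMP receptors share, was at 110.2 to 194 CPM with EtOH and 138 to 189 CPM with calcipotriol. The largest absolute log2 fold change of these 5 genes was that of Tgfbr2, -0.38 (SE 0.18). Acvr2a, a receptor of activins, was at 17.9 to 31.9 CPM with EtOH and 17.4 to 31.1 CPM with calcipotriol. Bmpr1b and Acvr2b were low, at 0.446 to 4.28 CPM and 0.573 to 3.84 CPM with EtOH, and at 0.914 to 2.1 CPM and 1.1 to 2.12 CPM with calcipotriol. Bmpr1b was higher in EtOH tumors 1 and 2 than in any other tumor.

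SMADs came to 8 members, of which 7 were tested, 3 with a positive and 4 with a negative log2 fold change and a median of -0.09. Smad1, a SMAD that BMP receptors activate, was at 59.4, 58.7, 42.2 and 43.4 CPM in EtOH tumors 1 to 4 and 40.9, 35.1, 31.2 and 39.1 CPM in calcipotriol tumors 1, 5, 6 and 7. All calcipotriol tumors were below all EtOH tumors, and calcipotriol tumor 1 lay close to EtOH tumors 3 and 4. For Smad1 the log2 fold change was -0.48 (SE 0.16, edgeR quasi-likelihood adjusted p = 0.146), which did not pass. With EtOH tumors 3 and 4 set aside it was -0.69 and passed (edgeR adjusted p = 0.0349), and with EtOH tumors 1 and 2 set aside it was -0.22. Over all alternatives the adjusted p of Smad1 was 0.0349 to 0.453. Smad5, which acts beside Smad1, was at 132 to 186 CPM with EtOH and 112 to 140.4 CPM with calcipotriol (log2 fold change -0.30, SE 0.14). Smad9, the third SMAD of the BMP branch, was not tested, with 0 to 3 counts per tumor.

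Smad3, which TGF-beta and activin receptors activate, was the most abundant SMAD per kb of exon, at 27.5 ± 2.06 CPM per kb (SD, n = 4) with EtOH and 30.7 ± 5.16 CPM per kb (SD, n = 4) with calcipotriol. Its level was 159, 156, 159 and 135 CPM in EtOH tumors 1 to 4 and 134, 165, 177 and 203 CPM in calcipotriol tumors 1, 5, 6 and 7. Calcipotriol tumor 1 and EtOH tumor 4 were the lowest and calcipotriol tumors 5, 6 and 7 the highest, so the groups overlapped. Smad2, its close relative, was at 42.2 to 51.7 CPM with EtOH and 41.3 to 52.3 CPM with calcipotriol. Smad4, the common partner, was at 75.7 to 93 CPM with EtOH and 62.3 to 77.6 CPM with calcipotriol (log2 fold change -0.26, SE 0.12). The inhibitory SMADs, Smad6 and Smad7, which the pathway induces and which block receptor signaling, were at 5.79 to 11.3 CPM and 74.2 to 94.9 CPM with EtOH, and at 7.35 to 12.2 CPM and 56.4 to 95 CPM with calcipotriol. The groups overlapped for each of these SMADs and none passed.

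The 3 target genes of the list encode ID proteins, inhibitors of basic helix-loop-helix transcription factors whose transcription BMP signaling induces directly. Id3 was the most abundant member of the whole list per kb of exon when averaged over all 8 tumors, though Fstl1 exceeded it in EtOH tumor 3. Id3 was at 120.3 ± 45.3 CPM per kb (SD, n = 4) with EtOH and 137 ± 28.8 CPM per kb (SD, n = 4) with calcipotriol. Its level was 320.2, 235, 135 and 172 CPM in EtOH tumors 1 to 4 and 213, 212, 321 and 235 CPM in calcipotriol tumors 1, 5, 6 and 7, with EtOH tumor 1 and calcipotriol tumor 6 the highest. Id1 was at 71.5, 50.7, 41.6 and 42.5 CPM in EtOH tumors 1 to 4 and 55.3, 85.4, 113 and 90.3 CPM in calcipotriol tumors 1, 5, 6 and 7. Calcipotriol tumors 5, 6 and 7 were above every EtOH tumor, and calcipotriol tumor 1 lay inside the EtOH range. For Id1 the log2 fold change was 0.74 (SE 0.23, edgeR quasi-likelihood adjusted p = 0.126). Id1 passed without calcipotriol tumor 1 (log2 fold change 0.90, edgeR adjusted p = 0.0291) and in DESeq2 with all tumors (adjusted p = 0.0388), within a range of 0.0291 to 0.321 over all alternatives. Id2 was at 108 to 129.7 CPM with EtOH and 58.5 to 112 CPM with calcipotriol, with a log2 fold change of -0.37 (SE 0.19). The log2 fold changes of the 3 ID genes thus differed in sign, positive for Id1 and Id3 and negative for Id2, and with all tumors none passed by edgeR and only Id1 passed by DESeq2.

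Antagonists came to 4 members, of which 3 were tested, and both members that passed by edgeR belong to them. Fst (ENSMUSG00000021765, chr13:114452290-114458951 in GRCm38, reverse strand) encodes follistatin, a secreted protein that binds activins tightly and keeps them from their receptors. It had 24, 21, 78, 120 counts in the EtOH tumors and 656, 661, 238, 310 counts in calcipotriol tumors 1, 5, 6 and 7. Its level was 1.17, 1.02, 3.16 and 5.29 CPM in EtOH tumors 1 to 4 and 26.1, 30.2, 11.4 and 13.1 CPM in calcipotriol tumors 1, 5, 6 and 7. Every calcipotriol tumor was above every EtOH tumor, calcipotriol tumors 1 and 5 were the highest, and EtOH tumors 1 and 2 were the lowest. Fst rose 7.55-fold in the fit, with a mean of 2.66 ± 2.01 CPM (SD, n = 4) under EtOH and 20.2 ± 9.32 CPM (SD, n = 4) under calcipotriol. For Fst the log2 fold change was 2.92 (SE 0.54, edgeR quasi-likelihood adjusted p = 0.0233). Fst did not pass without EtOH tumor 1 (edgeR adjusted p = 0.0586), EtOH tumor 2 (0.0543), EtOH tumor 3 (0.0576) or calcipotriol tumor 5 (0.0666), with log2 fold changes of 2.65 to 3.01 in these fits. With EtOH tumors 1 and 2 set aside the log2 fold change was 2.26 and did not pass (edgeR adjusted p = 0.0608), and with EtOH tumors 3 and 4 set aside it was 4.20 (adjusted p = 0.00474). Per kb of exon Fst was scarce beside Inhba and Inhbb, the activin subunits it binds, at 0.58 ± 0.437 CPM per kb (SD, n = 4) with EtOH and 4.4 ± 2.03 CPM per kb (SD, n = 4) with calcipotriol. Inhba was at 26.8 ± 3.53 and 28.5 ± 9.69 CPM per kb (SD, n = 4), and Inhbb was at 15.9 ± 3.07 and 22.9 ± 3.2 CPM per kb (SD, n = 4), with EtOH and calcipotriol in that order.

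Of 4 tested markers of basal epithelial cells and keratinocytes 2, Krt14 and Trp63, rose by edgeR and none fell, and 2 passed by DESeq2. Over all genes tested, 2.74% passed by edgeR and 8.21% by DESeq2. The summed markers of that list were at 4.23, 3.31, 7.29 and 5.91 CPM in EtOH tumors 1 to 4 and 6.44, 21.9, 58.6 and 49.8 CPM in calcipotriol tumors 1, 5, 6 and 7. Calcipotriol tumor 1 was within the EtOH range. Krt14 was the most abundant of these markers in calcipotriol tumors 5, 6 and 7 but in no other tumor, and Krt1 and Ivl had 0 counts in all EtOH tumors. The tumors with the highest sums, calcipotriol tumors 6 and 7, were those with the least Fst within the calcipotriol group, and the part of these cells in the Fst result was not tested.

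Grem1 (ENSMUSG00000074934, chr2:113746164-113758646 in GRCm38, reverse strand) encodes gremlin 1, a secreted protein that binds BMP2, BMP4 and BMP7 and that stromal cells make in many tissues. Its level was 143, 177, 193 and 173 CPM in EtOH tumors 1 to 4 and 83.8, 75.9, 70.1 and 80.1 CPM in calcipotriol tumors 1, 5, 6 and 7. The calcipotriol tumors lay close together and all were below the lowest EtOH tumor, which was tumor 1. Grem1 was 2.21-fold lower in the fit, with a mean of 172 ± 21 CPM (SD, n = 4) under EtOH and 77.5 ± 5.88 CPM (SD, n = 4) under calcipotriol. For Grem1 the log2 fold change was -1.15 (SE 0.13, edgeR quasi-likelihood adjusted p = 0.00249). Grem1 passed under each of the 15 alternatives, with log2 fold changes of -1.24 to -1.04 and adjusted p of 9.19e-14 to 0.0171, the sets without EtOH tumors 1 and 2, without EtOH tumors 3 and 4 and without calcipotriol tumor 1 included. Per kb of exon Grem1 was at 41.4 ± 5.05 CPM per kb (SD, n = 4) with EtOH and 18.7 ± 1.42 CPM per kb (SD, n = 4) with calcipotriol. Of 8 fibroblast markers, 0 passed by edgeR and 0 by DESeq2, 2 had an unadjusted p under 0.05 by edgeR, Dcn higher and Col3a1 lower, and 6 had a positive log2 fold change. The summed fibroblast markers were at 5142, 4952, 4522 and 4094 CPM in EtOH tumors 1 to 4 and 3253, 3401, 5004 and 5649.8 CPM in calcipotriol tumors 1, 5, 6 and 7, with Col3a1 the most abundant, and the groups overlapped in each fibroblast marker and did not overlap in Grem1. Of 7 pericyte and smooth muscle markers 1, Rgs5, fell by edgeR and 3 passed by DESeq2, 4 did not overlap between the groups and 6 had a negative log2 fold change, and their summed level was 835, 746, 437 and 422 CPM in EtOH tumors 1 to 4 and 528, 329, 465 and 490.4 CPM in calcipotriol tumors 1, 5, 6 and 7, with Pdgfrb the most abundant. Over all genes tested, 2.74% passed by edgeR, 8.21% passed by DESeq2, 12.5% were without overlap and 18.4% had an unadjusted p under 0.05 by edgeR. The part of either cell type in the Grem1 result was not tested.

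Fstl1, a secreted relative of follistatin made by mesenchymal cells, was the most abundant antagonist per kb of exon when averaged over all 8 tumors, though Grem1 exceeded it in EtOH tumors 1 and 2, at 58.7 ± 44.8 CPM per kb (SD, n = 4) with EtOH and 44.2 ± 20.04 CPM per kb (SD, n = 4) with calcipotriol. Its level was 100.1, 95.9, 494 and 464 CPM in EtOH tumors 1 to 4 and 362, 143, 192 and 172 CPM in calcipotriol tumors 1, 5, 6 and 7. EtOH tumors 1 and 2 were the lowest of all 8 tumors and EtOH tumors 3 and 4 the highest, so that the calcipotriol tumors lay between them. For Fstl1 the log2 fold change was -0.41 (SE 0.54, edgeR quasi-likelihood adjusted p = 0.742), and it was -1.14 with EtOH tumors 1 and 2 set aside and 1.15 with EtOH tumors 3 and 4 set aside, neither of which passed. The skeletal muscle markers, of which 0 of 5 passed by edgeR and 0 by DESeq2, with 1 at an unadjusted p under 0.05 by edgeR, divided the EtOH tumors the same way, with sums of 1.12, 0.925, 35.4 and 35.5 CPM in EtOH tumors 1 to 4 and 1.07, 0.868, 5.77 and 4.79 CPM in calcipotriol tumors 1, 5, 6 and 7, and Acta1 was the most abundant. Ckm and Myh4 had 0 counts in EtOH tumors 1 and 2 and in calcipotriol tumor 1. Of the fibroblast markers, Col1a1, Pdpn, Dpt and Lum were also lower in EtOH tumors 1 and 2 than in EtOH tumors 3 and 4. Pdgfra, Dcn and Col3a1 were higher there, and Fap was mixed. Col1a1 was at 303, 271, 1155 and 1040 CPM in EtOH tumors 1 to 4 and 760, 284, 789 and 1013 CPM in calcipotriol tumors 1, 5, 6 and 7. The part of muscle or of fibroblasts in the Fstl1 values was not tested. Nog, which encodes the BMP antagonist noggin, was not tested, with 0 to 12 counts per tumor.

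**Figure D2:**
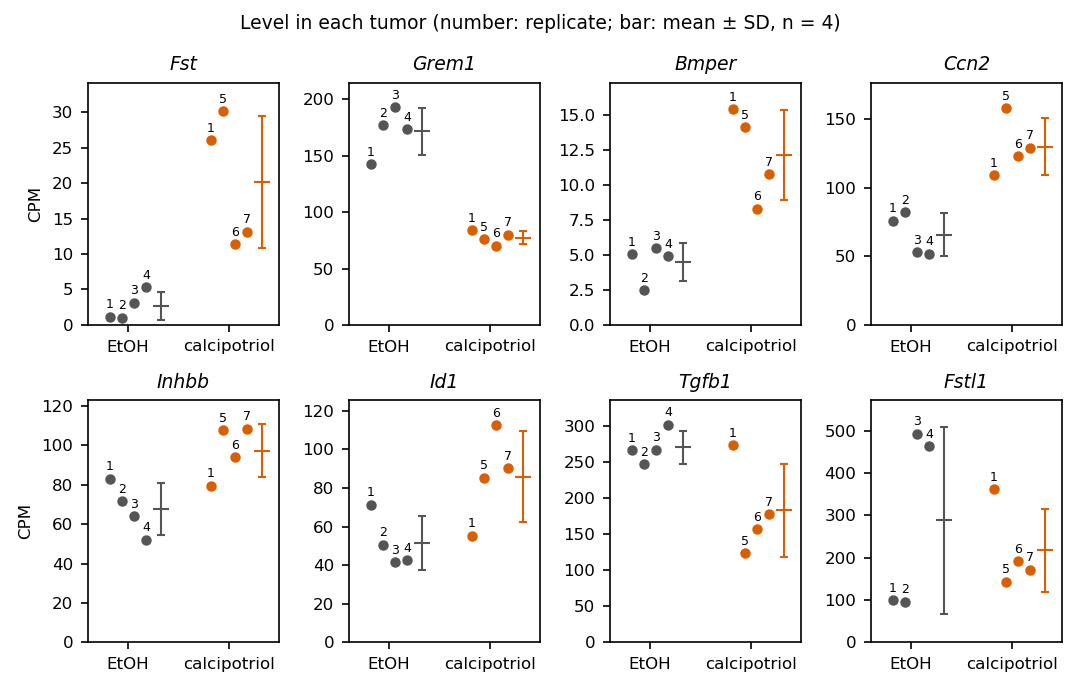
CPM (vertical axis, from 0) in each tumor for 8 genes, with EtOH in grey and calcipotriol in orange, the replicate number above each point and the mean ± SD (n = 4) beside each group. The groups are separate for Fst, Grem1, Bmper and Ccn2 and overlap for Inhbb, Id1, Tgfb1 and Fstl1, where calcipotriol tumor 1 or a pair of EtOH tumors lies apart.

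The latency proteins hold secreted TGF-beta inactive in the matrix until it is released. Ltbp1, which binds the TGF-beta 1 complex, was at 29.1 ± 1.3 CPM per kb of exon (SD, n = 4) with EtOH and 37.8 ± 5.02 CPM per kb (SD, n = 4) with calcipotriol, and Ltbp2 was at 36.5 ± 13.1 and 29.96 ± 16.6 CPM per kb (SD, n = 4), so that Ltbp2 had the higher mean with EtOH and Ltbp1 with calcipotriol. Its level was 319, 304, 327 and 296 CPM in EtOH tumors 1 to 4 and 339.8, 427, 385 and 464 CPM in calcipotriol tumors 1, 5, 6 and 7. All calcipotriol tumors were above all EtOH tumors, and calcipotriol tumor 1 was nearest to them. For Ltbp1 the log2 fold change was 0.38 (SE 0.13, edgeR quasi-likelihood adjusted p = 0.156), which did not pass, while DESeq2 gave an adjusted p of 0.0453 in a range of 0.0453 to 0.333 over all alternatives. Ltbp2, a matrix protein of elastic fibers that is related to Ltbp1 but does not bind latent TGF-beta, was at 405, 372, 235 and 182 CPM in EtOH tumors 1 to 4 and 405, 75.2, 230.3 and 270.0 CPM in calcipotriol tumors 1, 5, 6 and 7. It was high in EtOH tumors 1 and 2 and in calcipotriol tumor 1, and lowest in calcipotriol tumor 5 (log2 fold change -0.28, SE 0.42).

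The number of members called depended on which tumors entered the test. Without calcipotriol tumor 1, edgeR called 5 of 38 members at an adjusted p under 0.05, with Tgfb1, Acvrl1 and Grem1 lower and Fst and Id1 higher, beside 6.72% of all genes. With EtOH tumors 1 and 2 set aside, 1 of 39 members was called, Grem1, beside 1.56% of all genes, and the median log2 fold change of the members was 0.21. With EtOH tumors 3 and 4 set aside, 4 of 39 members were called, Fst higher and Grem1, Smad1 and Tgfbr3 lower, beside 5.55% of all genes. The median log2 fold change of the members was -0.15 in that fit. DESeq2 on all 8 tumors called 4 of 38 members, Fst, Id1 and Ltbp1 higher and Grem1 lower, beside 8.21% of all genes. Grem1 was among the members called in each of these, and the sign of the log2 fold change of 18 of the 38 tested members turned under at least 1 alternative, Fst and Grem1 not among them.

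Other genes of the pathway, 79 in number and chosen for their known roles, had 55 tested members, 22 with a positive and 33 with a negative log2 fold change and a median of -0.08. Past an adjusted p of 0.05, 2 of the 55 rose and 0 fell by edgeR, beside 2.74% of all genes. An unadjusted p under 0.05 by edgeR was reached by 12 of the 55, beside 18.4% of all genes, 8 passed by DESeq2, beside 8.21% of all genes, and 8 of the 55 did not overlap between the groups, beside 12.5% of all genes. Bmper (ENSMUSG00000031963, chr9:23223076-23485200 in GRCm38, forward strand) encodes a secreted BMP-binding protein related to chordin. Its level was 5.06, 2.48, 5.51 and 4.94 CPM in EtOH tumors 1 to 4 and 15.4, 14.2, 8.32 and 10.8 CPM in calcipotriol tumors 1, 5, 6 and 7. Each calcipotriol tumor was above each EtOH tumor, and the means were 4.5 ± 1.37 CPM (SD, n = 4) under EtOH and 12.2 ± 3.23 CPM (SD, n = 4) under calcipotriol. For Bmper the log2 fold change was 1.43 (SE 0.31, edgeR quasi-likelihood adjusted p = 0.0383). With the tumors left out in turn, Bmper passed in 1 of 8 fits, that without calcipotriol tumor 1, and its edgeR adjusted p was 0.0433 to 0.104. Bmper also did not pass with EtOH tumors 1 and 2 set aside (log2 fold change 1.22, edgeR adjusted p = 0.0867). Grem1 and Bmper, both BMP-binding antagonists, thus changed in opposite directions. Chrd, the BMP antagonist chordin, was at 5.93, 10.5, 4.37 and 3.62 CPM in EtOH tumors 1 to 4 and 9.77, 20.4, 13.2 and 16.2 CPM in calcipotriol tumors 1, 5, 6 and 7, and the groups overlapped only through EtOH tumor 2 and calcipotriol tumor 1. For Chrd the log2 fold change was 1.28 (SE 0.36, edgeR quasi-likelihood adjusted p = 0.0858), and Chrd passed by DESeq2 with all tumors (adjusted p = 0.0121) and by edgeR without calcipotriol tumor 1 (1.44, adjusted p = 0.0412) and with EtOH tumors 1 and 2 set aside (1.90, adjusted p = 0.0399), in all under 5 of 15 alternatives (adjusted p from 0.0121 to 0.224). Chrd was chosen after seeing the data, and other pathway genes of several roles also passed only under alternatives. Of the 55, edgeR called 7 without calcipotriol tumor 1, beside 6.72% of all genes. With EtOH tumors 1 and 2 set aside it called 3, beside 1.56% of all genes, and with EtOH tumors 3 and 4 set aside 5, beside 5.55%.

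Ccn2 (ENSMUSG00000019997, chr10:24595442-24598683 in GRCm38, forward strand), also called Ctgf, encodes a matricellular protein whose transcription TGF-beta induces, as do other inputs. It was at 75.9, 82.2, 52.9 and 52 CPM in EtOH tumors 1 to 4 and 109, 158, 123 and 129 CPM in calcipotriol tumors 1, 5, 6 and 7. The groups did not overlap, and EtOH tumors 3 and 4 were lower than EtOH tumors 1 and 2. For Ccn2 the log2 fold change was 0.98 (SE 0.18, edgeR quasi-likelihood adjusted p = 0.024), under the fold change threshold of 1. With the tumors left out in turn, Ccn2 passed an adjusted p of 0.05 in 3 of 8 fits, those without EtOH tumor 1, EtOH tumor 2 or calcipotriol tumor 1, and its edgeR adjusted p was 0.0115 to 0.067. Tgfbi, a matrix protein named for its induction by TGF-beta, was at 762, 826, 834 and 862 CPM in EtOH tumors 1 to 4 and 755, 353, 551 and 532 CPM in calcipotriol tumors 1, 5, 6 and 7. For Tgfbi the separation was small, with calcipotriol tumor 1 just under EtOH tumor 1, and the log2 fold change was -0.58 (SE 0.20, edgeR adjusted p = 0.157). Without calcipotriol tumor 1 Tgfbi passed at -0.78 (edgeR adjusted p = 0.0284). Ccn2 and Tgfbi therefore did not share a direction, since Ccn2 was higher and Tgfbi was lower in the calcipotriol tumors, and of these 2 only Ccn2 passed by edgeR with all tumors.

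Bmp8a, Bambi, Gdf11 and Fkbp1a were also without overlap, and with all tumors they did not pass by edgeR and passed by DESeq2 (adjusted p = 0.00306, 0.0296, 0.0227 and 0.0295 in that order). Bmp8a, a BMP ligand best known from germ cells and brown fat, was at 14.6, 13.1, 5.63 and 5.25 CPM in EtOH tumors 1 to 4 and 4.25, 0.32, 0.721 and 0.636 CPM in calcipotriol tumors 1, 5, 6 and 7. EtOH tumors 1 and 2 were the highest and calcipotriol tumors 5, 6 and 7 the lowest, and calcipotriol tumor 1 lay near EtOH tumors 3 and 4. For Bmp8a the log2 fold change was -2.69 (SE 0.75, edgeR quasi-likelihood adjusted p = 0.0861), and without calcipotriol tumor 1 it was -4.10 (edgeR adjusted p = 0.00265), the lowest over its alternatives, which reached 0.28. Bmp8a also passed in edgeR without a filter on low counts (adjusted p = 0.029). Bambi, a pseudoreceptor that lacks the kinase and dampens signaling, was at 3.65, 4.38, 4.78 and 6.53 CPM in EtOH tumors 1 to 4 and 0.993, 1.1, 2.16 and 2.97 CPM in calcipotriol tumors 1, 5, 6 and 7 (log2 fold change -1.42, SE 0.44). Gdf11, a ligand related to myostatin, was at 9.39, 12, 8.47 and 12.7 CPM in EtOH tumors 1 to 4 and 16.4, 16.4, 18 and 16.2 CPM in calcipotriol tumors 1, 5, 6 and 7 (log2 fold change 0.66, SE 0.18). Fkbp1a, the FK506-binding protein that keeps the TGF-beta receptor kinase inactive, was at 389, 425, 470.1 and 465 CPM in EtOH tumors 1 to 4 and 362, 349, 337 and 331 CPM in calcipotriol tumors 1, 5, 6 and 7 (log2 fold change -0.34, SE 0.12). Bambi and Fkbp1a were lower and Gdf11 was higher in each calcipotriol tumor than in each EtOH tumor, and the adjusted p of these genes was 0.118, 0.153 and 0.0861 in that order in edgeR's quasi-likelihood fit.

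Markers of several other cell types were also examined, and their counts stand beside 2.74% of all genes passing by edgeR and 8.21% by DESeq2. An unadjusted p under 0.05 by edgeR was reached by 18.4% of all genes. Of 8 macrophage markers 2, Adgre1 and Csf1r, fell by edgeR and none rose, 4 passed by DESeq2, and their summed level was 1799.9, 1798, 2085 and 2161 CPM in EtOH tumors 1 to 4 and 1564, 915, 911 and 818 CPM in calcipotriol tumors 1, 5, 6 and 7, with C1qa the most abundant. Calcipotriol tumor 1 was nearest to the EtOH tumors in these sums, as it was for Tgfb1, and the part of macrophages in the Tgfb1 values was not tested. Of 6 erythroid markers 5 fell by edgeR and 6 passed by DESeq2, and their summed level was 5595, 5836, 3509.6 and 3457 CPM in EtOH tumors 1 to 4 and 820.4, 434, 609 and 532 CPM in calcipotriol tumors 1, 5, 6 and 7, with Hbb-bs the most abundant. Of 6 tested luminal epithelial markers 1, Cldn3, rose and 1, Krt18, fell by edgeR and 3 passed by DESeq2, and their summed level was 1252, 1322, 1012 and 1082 CPM in EtOH tumors 1 to 4 and 899, 599.6, 686 and 609.8 CPM in calcipotriol tumors 1, 5, 6 and 7, with Krt8 the most abundant. Of 3 tested adipocyte markers 1, Fabp4, fell by edgeR and 1 passed by DESeq2, and the sums were 28.6, 33.5, 48.2 and 55.3 CPM in EtOH tumors 1 to 4 and 14.4, 29.2, 30.7 and 18.3 CPM in calcipotriol tumors 1, 5, 6 and 7. Of 3 tested T cell markers 0 passed by edgeR and 0 by DESeq2, with 0 at an unadjusted p under 0.05 by edgeR and all 3 log2 fold changes positive. Of 4 tested neutrophil markers 0 passed by edgeR and 0 by DESeq2, with 1 at an unadjusted p under 0.05 by edgeR. The T cell sums were 1.19 to 2.04 CPM with EtOH and 1.44 to 11.2 CPM with calcipotriol, highest in calcipotriol tumor 1, and the neutrophil sums were 27.7 to 91.3 CPM with EtOH and 36.9 to 133 CPM with calcipotriol. The part of these cell types in the values of the pathway genes was not tested.

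Some members overlap a gene on the opposite strand in their whole span, introns included. Whether exons overlap was not examined, and the strand setting of the counting is not given in the sources used here. Tgfb3 overlaps Ttll5 (1010 to 1745 counts per tumor), Bmp6 overlaps Txndc5 (4739 to 7067 counts), Acvr2a overlaps Orc4 (592 to 1103 counts) and Ltbp2 overlaps D030025P21Rik (41 to 229 counts). Bmp4, itself at 35 to 146 counts, overlaps Gm15222 (0 to 39 counts). The values of these members are uncertain to that extent. Fst overlaps Gm47040, which had 0 counts in every tumor, and Ccn2 overlaps Gm15270, which had 0 to 26 counts.

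Promoter sequences were taken from RefSeq (GRCm38.p6), where 28 of the 42 members had an entry. The 250 bases before the gene start are shown for Grem1, the member that fell under every alternative, and for Bmper, the BMP antagonist that rose by edgeR with all tumors, because these antagonists changed in opposite directions. They lie upstream of the annotated gene, at chr2:113758649-113758898 on the reverse strand for Grem1 and at chr9:23222826-23223075 on the forward strand for Bmper. Searched on both strands were GTCTAGAC, the palindrome that SMAD3 and SMAD4 bind, CAGAC, the shorter SMAD-binding element (GTCTG on the other strand), and GGCGCC, a GC-rich word bound by SMADs of the BMP branch, and none of these words contains another. Capitals mark a match, and each sequence is written 5′ to 3′ on the strand of its gene.
Grem1: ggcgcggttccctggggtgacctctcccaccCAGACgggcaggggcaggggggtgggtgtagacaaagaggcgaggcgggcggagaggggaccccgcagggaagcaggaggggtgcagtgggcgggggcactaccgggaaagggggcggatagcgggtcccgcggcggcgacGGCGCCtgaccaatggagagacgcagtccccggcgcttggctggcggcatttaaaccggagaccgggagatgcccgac
Bmper: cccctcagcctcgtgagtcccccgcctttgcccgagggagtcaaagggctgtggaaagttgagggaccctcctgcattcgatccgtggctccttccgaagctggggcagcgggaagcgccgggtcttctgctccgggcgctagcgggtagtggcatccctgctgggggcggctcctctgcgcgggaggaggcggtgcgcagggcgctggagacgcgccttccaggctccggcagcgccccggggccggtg
The Grem1 sequence held 1 CAGAC, 1 GGCGCC and 0 GTCTAGAC, and the Bmper sequence held 0 of each. Among 32851 promoter entries of the same length, 42.2% held CAGAC, 9.59% held GGCGCC and 0.167% held GTCTAGAC on either strand. A match describes the letters alone, and the absence of a match says only that these letters are not in this window. Fst and Ccn2 had no entry.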

How the data were processed

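The authors deposited estimated counts per gene (expected counts, not all whole numbers), 1 column per tumor and unscaled. The submitters' processing notes name STAR 2.5.3, RSEM 1.3.1, DESeq2 1.24.0 and GRCm38, with no role or order given here. The study's methods name limma and an Illumina HiSeq sequencer, and the labels name a NovaSeq. The strand setting and the annotation used for counting are not given in the sources used here.

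The design had assumed whole counts, and the estimated counts were rounded. Identifiers were matched to symbols, positions and exon lengths in GENCODE M21 (52081 of 55414). In R 4.3.3, edgeR 4.0.16 was used (filterByExpr by group, TMM, glmQLFit, glmQLFTest), with Benjamini-Hochberg adjustment over all 14458 genes tested. Thresholds were an adjusted p under 0.05 and, for calls past both, a log2 fold change of 1 or more in either direction. The standard error is the size of the log2 fold change divided by the square root of the F statistic. The biological coefficient of variation was 0.347. CPM per kb divides CPM by the length of all annotated exons joined. Root mean square log2 differences used a prior count of 2. The study's methods call the tumors of a group biological replicates.

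Alternatives were DESeq2 size factors in edgeR, no filter on low counts, at least 10 counts in every tumor, the DESeq2 1.42.0 test, limma-voom (limma 3.58.1) and each tumor left out in turn. Setting EtOH tumors 1 and 2, or 3 and 4, aside was added after seeing the data. A value without some tumors is given beside a result where it ended or made a call. Values in every tumor are given for members with an adjusted p under 0.05, members without overlap and the most abundant member per kb of each role. Of the other pathway genes, those with an adjusted p under 0.05 and, as fewer than 5 had it, 7 of the 8 without overlap are named, and 1 is not reported here, and Chrd was added after seeing the data. Values in every tumor of other members were added after they had been seen. The members and lists were chosen with earlier results of these data known. The scripts were tested on simulated data. Count floors cover counting error only, because PCR copies of a molecule are counted as separate reads.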

Additional observations from a re-analysis of the deposited data

Results flagged for a closer look

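In 6 of 114 groups of 4 tumors examined (the tested members, the other pathway genes named and the marker sums, on log2 of CPM plus 0.1), the highest or lowest tumor lay apart from the rest of its group by a gap larger than Dixon's critical value, and chance gives about 1 in 20 groups, or 5.7 of 114. Acvr2a was at 31.9 CPM in EtOH tumor 2 and at 17.9 to 19.0 CPM in the other EtOH tumors. Acvrl1 was at 18.4 CPM in calcipotriol tumor 1 and at 3.94 to 4.70 CPM in the other calcipotriol tumors. Smad2 was at 41.3 CPM in calcipotriol tumor 5 and at 50.7 to 52.3 CPM in the others of its group. Smad3 was at 135 CPM in EtOH tumor 4 and at 156 to 159 CPM in the others. Gdf11 was at 18.0 CPM in calcipotriol tumor 6 and at 16.2 to 16.4 CPM in the others. Bmper was at 2.48 CPM in EtOH tumor 2 and at 4.94 to 5.51 CPM in the others.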

How the results depend on the processing

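Across all genes, 292 passed both thresholds. There were 458 without a filter on low counts, 644 in DESeq2, 110 to 642 with 1 tumor left out (642 without calcipotriol tumor 1), 177 with EtOH tumors 1 and 2 set aside and 605 with EtOH tumors 3 and 4 set aside. Of the members, 2 passed both thresholds, and this was 1 to 3 with 1 tumor left out and 1 with EtOH tumors 1 and 2 set aside. An adjusted p under 0.05 alone was reached by 2 members, by 4 in DESeq2, by 1 to 5 with 1 tumor left out, by 1 with EtOH tumors 1 and 2 set aside and by 4 with EtOH tumors 3 and 4 set aside. The cause of these differences was not tested, and fits with fewer tumors gave both fewer and more calls. The median log2 fold change of the members was -0.11 to 0.03 with 1 tumor left out. Of the genes whose log2 fold change the report gives, 4 turned direction under at least 1 alternative and none of these values passed. Tgfbr3 was -0.4971 to 0.0532 with 1 tumor left out, positive only without EtOH tumor 2, and 0.7107 with EtOH tumors 1 and 2 set aside. Bmp1 was -0.2187 to 0.0120 with 1 tumor left out, positive only without EtOH tumor 1, and 0.1292 with EtOH tumors 1 and 2 set aside. Ltbp2 was -0.6386 to 0.0164 with 1 tumor left out, positive only without calcipotriol tumor 5, and 0.2342 with EtOH tumors 1 and 2 set aside. Fstl1 was 1.1501 with EtOH tumors 3 and 4 set aside. Fst passed under 10 and Grem1 under 15 of 15 alternatives, and in each of the other 5 Fst had fewer tumors in the fit. No paired analysis was made, because neither the labels nor the study's methods pair EtOH tumors with calcipotriol tumors. Bmp3, Gdf6, Nog and Smad9 were set aside by the filter on low counts, at 0 to 30, 1 to 10, 0 to 12 and 0 to 3 counts per tumor. Only Smad9 stayed within the floor of 3 counts in every tumor. Without that filter edgeR tested all 42 members and called 2 at an adjusted p under 0.05.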
